A study of Mus musculus with 6 samples.

Results

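Ribosomal protein genes encode the proteins that, with ribosomal RNA, make up the cytosolic ribosome. Members were taken by symbol, as protein-coding genes named Rpl or Rps followed by a digit, together with Rplp0, Rplp1, Rplp2 and Rpsa. Rps6k kinases, genes for proteins that only bind a ribosomal protein, and pseudogenes were left out. This gave 87 of 21749 protein-coding genes with a usable position. They comprise 31 genes of the small subunit, 43 of the large subunit, 3 of the stalk and 10 paralogs or retrocopies.

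The cells were splenic natural killer (NK) cells, lymphocytes that kill infected or transformed cells. KO cells came from Tcf7-/- mice whose strain is labelled B6.129 Tcf7Tm1Cle, and WT cells from Tcf7+/+ mice whose strain is labelled B6, so strain and genotype cannot be told apart. Cells of both genotypes were grown for 5 days with 500 ng/mL of the cytokine IL-2, and chromatin was precipitated with an antibody against H3K4me3 or against Tcf1, the DNA-binding protein that Tcf7 encodes. Peak lists of 4 libraries were used, 1 for each antibody and genotype, and the input libraries were not analysed here. With 1 library per group no difference has a replicate check, no p-value is given, and intervals cover counting error only. Peaks at Y-linked genes differed between the H3K4me3 libraries, as described below. A difference in sex was not tested and could not be told apart from genotype.

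The ribosome joins a small subunit, which reads the messenger RNA, to a large subunit, which forms peptide bonds. Nearly every ribosome carries the same set of proteins, so their genes are transcribed at high rates in growing cells. H3K4me3 is a histone mark laid down around the start of active genes. Many messenger RNAs of the translation machinery begin with a C and a run of pyrimidines, the 5′ terminal oligopyrimidine (TOP) motif, through which growth signals control their translation.

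Promoter windows of 300 bases (250 before the start and 50 from it on) were held for 61 of the 81 members marked with H3K4me3 and for all 6 unmarked members, from RefSeq on build GRCm38.p6. Parts of 11 of them are shown, each with 60 bases before the annotated start and 15 from it on, because they cover the TOP run, 2 of the 3 genes whose mark differed most, and copies with no mark. No window was held for Rpl3, the other of these 3. Capitals mark the TOP run, taken as a C with at least 4 further C or T bases after it that begins within 10 bases of the start. Rpl15 (chr14:18270972-18271046, minus strand), Rpl35 (chr2:39005117-39005191, minus), Rps6 (chr4:86857353-86857427, minus), Rps10 (chr17:27635230-27635304, minus), Rplp2 (chr7:141447591-141447665, plus) and Rps27 (chr3:90213634-90213708, minus) have a run that begins at the annotated start. Rps9 (chr7:3703981-3704055, plus) has a run that begins 3 bases before it, and Rps4x (chrX:102189377-102189451, minus) has none. Rpl10l (chr12:66284387-66284461, minus), Rpl3l (chr17:24727766-24727840, plus) and Rps27rt (chr9:114982725-114982799, minus) had no H3K4me3 peak in either library. The run of Rps27rt begins at the annotated start and that of Rpl3l 9 bases past it. The run of Rpl10l begins 10 bases before the start and ends before it, so it lies outside the annotated transcript.
Rpl15: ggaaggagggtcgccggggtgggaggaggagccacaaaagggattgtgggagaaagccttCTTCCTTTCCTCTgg
Rpl35: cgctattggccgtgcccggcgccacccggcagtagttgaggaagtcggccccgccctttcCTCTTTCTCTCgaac
Rps6: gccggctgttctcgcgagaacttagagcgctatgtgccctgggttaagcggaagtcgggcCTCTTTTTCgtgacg
Rps10: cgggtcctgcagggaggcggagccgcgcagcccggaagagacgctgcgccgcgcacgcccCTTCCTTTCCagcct
Rplp2: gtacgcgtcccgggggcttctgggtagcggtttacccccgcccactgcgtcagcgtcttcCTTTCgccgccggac
Rps27: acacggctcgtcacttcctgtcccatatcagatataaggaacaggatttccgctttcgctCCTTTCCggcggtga
Rps9: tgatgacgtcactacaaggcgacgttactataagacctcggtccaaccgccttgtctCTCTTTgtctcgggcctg
Rps4x: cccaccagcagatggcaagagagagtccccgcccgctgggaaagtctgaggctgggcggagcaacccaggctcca
Rpl10l: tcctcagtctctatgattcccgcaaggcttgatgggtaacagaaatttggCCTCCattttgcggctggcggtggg
Rpl3l: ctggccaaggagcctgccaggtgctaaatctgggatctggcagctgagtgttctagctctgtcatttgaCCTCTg
Rps27rt: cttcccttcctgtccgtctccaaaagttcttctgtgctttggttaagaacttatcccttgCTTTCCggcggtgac

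Among the 61 marked members with a window, 12 (19.7%) had the TOP run exactly at the annotated start, against 2.17% of 17492 promoters and 2.1% of the 8515 promoters of genes marked in both libraries. A run that begins within 10 bases of the start, on either side, was held by 33 members (54.1%), against 31.2% of all promoters. Its median length in members was 7 bases, and some such runs may lie outside the transcript. Motifs were searched on both strands of the 300 bases. The letters CCGGAAG, bound by ETS factors, were found in 24 members (39.3%), against 11.9% of all promoters and 21.3% of marked ones. The GC box GGGCGG was found in 62.3% of members, against 46.3% of all promoters and 67% of marked ones. The YY1 letters AAGATGGC were found in 8.2% of members, against 3.22% of all promoters and 5.32% of marked ones. The TATA box TATAAA was found in 9.84% of members, against 13.3% of all promoters but 6.4% of marked ones, and the E-box CACGTG in 8.2%, against 7.9% of all and 10.5% of marked ones. The Tcf/Lef letters CTTTGAT or CTTTGTT were found in 1.64% of members, which is Rpl22 alone, against 8.04% of all promoters and 5.7% of marked ones. A window was counted at most 1 time for each motif, different motifs may overlap, and a match describes letters and not a bound site.

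The windows of marked members had a median GC share of 58.33%, against 61.33% for all genes marked in both libraries and 50% for the other genes. Their observed over expected CpG ratio had a median of 0.9, against 0.8 and 0.25. The 6 unmarked members had medians of 52.33% GC and 0.52. The printed starts of Rps27 and of its copy Rps27rt share at most 14 bases in a row, all from the start on in both, and at most 10 in the bases before it.

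The KO H3K4me3 list held 11074 peaks and the WT list 13771, with a mean of 298.8 tags per kb in KO and 218.6 in WT. Total reads of the libraries are not given in the sources used here, so tags were set against the median of the genes marked in both. All 10 NK cell genes on the marker list, among them Ncr1, Eomes and Prf1, carried peaks in both libraries. Of 7 T cell genes 0 carried a peak in KO and 2 in WT (Cd3d with 35 tags and Cd3e with 64), and Cd4 and Cd8a carried none. B cell genes carried none, and of 5 myeloid genes only Cd14 did, with 95 tags in WT. Of 5 erythroid genes 2 carried a peak in KO and 3 in WT. The deleted gene Tcf7 had 535 H3K4me3 tags in KO and 525 in WT, a log2 ratio of -0.24 against the median gene (95% counting interval -0.41 to -0.06) and of 0.06 per kb of peak, with no Tcf1 peak in KO and 1 in WT. In a mixed sample a lower count may mean fewer marked cells or less mark per cell, and these cannot be told apart.

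H3K4me3 marked the starts of 81 of the 87 members (93.1%) in both libraries, where a gene counts as marked if a peak comes within 1 kb of its start. Over all protein-coding genes 47.6% were marked in both. No member was marked in KO alone (0.17% of all genes) or in WT alone (5.92%), and 6 were marked in neither (46.4%). Every one of the 77 genes of the subunits and the stalk was marked in both, so the unmarked members were all paralogs or retrocopies. Rpl3l is a paralog of Rpl3 known from heart and skeletal muscle, and Rpl10l replaces the X-linked Rpl10 in male germ cells. Rpl39l is known from testis. The others were Rpl32l, Rpl37rt and Rps27rt. A gene with no peak has no listed tags, which does not show that the mark was absent.

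At most members the mark held more tags than at the median marked gene. Marked members had a median of 1021 tags in KO and 727 in WT, with a range of 250 to 1852 in KO and of 178 to 1481 in WT. All genes marked in both had medians of 683 in KO and 563 in WT. The median member stood at percentile 73.6 of marked genes by tags in KO and at percentile 68.8 in WT. Per kb of peak, the median member had 354.9 tags in KO and 251.8 in WT. These values stood at percentile 66.3 of the KO list and 61.4 of the WT list. Percentiles were taken among all genes marked in that library. On them the median gene marked in both stood at 50.1 in KO and 55.4 in WT by tags. Per kb it stood at 50.2 in KO and 55.5 in WT. The peaks at their starts held 1.11% of all H3K4me3 tags in the KO list and 0.895% in the WT list. Across the 81 members the log2 tags of KO and WT had a Pearson correlation of 0.97, which describes gene-to-gene order and rests on regions shared by both libraries.

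**Figure D1:**
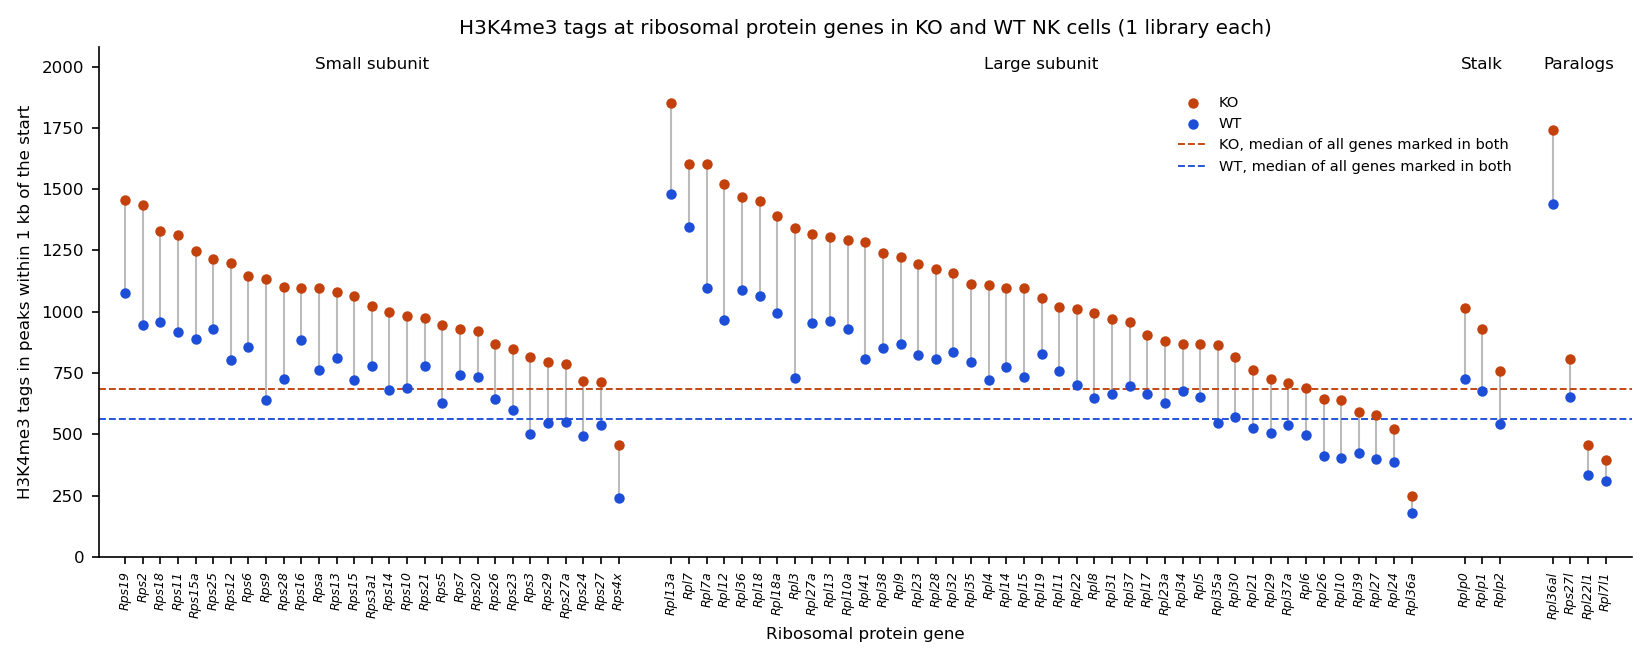
H3K4me3 tags (vertical axis) in peaks within 1 kb of the start of 79 of the 81 marked ribosomal protein genes (horizontal axis, by role and by KO level), as 1 point for the KO library and 1 for the WT library. The KO point lies above the WT point at every one of the 79 genes, and raw tags were also higher in KO at most of all genes. Dashed lines give the medians of all genes marked in both, 683 in KO and 563 in WT.

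Raw tags were higher in KO at all 81 members, but most genes had more tags in KO. Over all genes marked in both, the raw log2 ratio had a lower quartile of 0.13, and the median gene had 1.20 times as many tags in KO. Ratios of KO over WT (log2) were therefore centred on the median of the 10343 genes marked in both, which puts about 50% of all genes above 0. On this scale members had a median of 0.22, or 1.17-fold, with an SD of 0.12 over the 81 genes and quartiles of 0.17 and 0.28. The quartiles of all genes were -0.14 and 0.13. The ratio was above 0 at 80 of 81 members (98.8%), against 50% of all genes, and its 95% counting interval lay above 0 at 62, against 19.1% of all genes. It was at least 0.5 at 3 members (3.7%), against 1.36% of all genes, and at most -0.5 at 0, against 6.41%. The members thus shared a small shift in 1 direction, and few had a large one.

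Taken per kb of peak, which divides tags by the called width, the median was 0.17 (1.13-fold). On this measure 72 of 81 members were above 0, against 50% of all genes. At equal tags a wider KO call lowers this ratio, so it still depends on the called widths. The per kb ratio was at least 0.5 at 2 members (Rpl3 at 0.66 and Rpl10 at 0.59), against 1.49% of all genes, and at most -0.5 at 0, against 5.37%. On regions made by merging KO and WT peaks that overlap, 80 of 81 members were above 0, against 50% of all genes. On these regions 3 were at least 0.5, against 1.28%, and 0 were at most -0.5, against 6.2%. Merging adds up the tags already listed and recounts no reads, so at members these values repeat those by tags. Scaled by the total tags of each list instead of the median gene, the median was 0.31. On that scale the median gene itself also lies above 0, so 0.31 is not a distance from the median gene. By tags the distance between the median member and the median gene stays 0.22 under either scaling, and per kb it was 0.17.

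The spread of the members' ratios, 0.12, was larger than the 0.07 that counting error alone would give. Marked genes were split into 4 equal bins by tag level, and 67 of 81 members lay in the upper bins, where the ratio of all genes was close to 0. The third bin held 39 members and had a median of 0.02 over all its genes, with 54.4% above 0. The highest bin held 28 members and had a median of -0.02, with 42.9% above 0. Over all genes the ratio moved with base composition and gene length. With promoters of 55 to 60% GC 59.9% of genes were above 0, and with 65% or more 39% were. Below 2 kb of gene length 58.6% were above 0, and at 16 kb or more 45.7% were. The part of either in the members' shift was not tested. Genes of 2 to 4 kb had a median of 0.04 over all 595 genes and of 0.23 over the 40 members among them. Genes with promoters of 65% GC or more had a median of -0.05 over 3030 genes and of 0.21 over 7 members. Those of 50 to 55% GC had 0.05 over 1141 genes and 0.23 over 16 members.

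**Figure D2:**
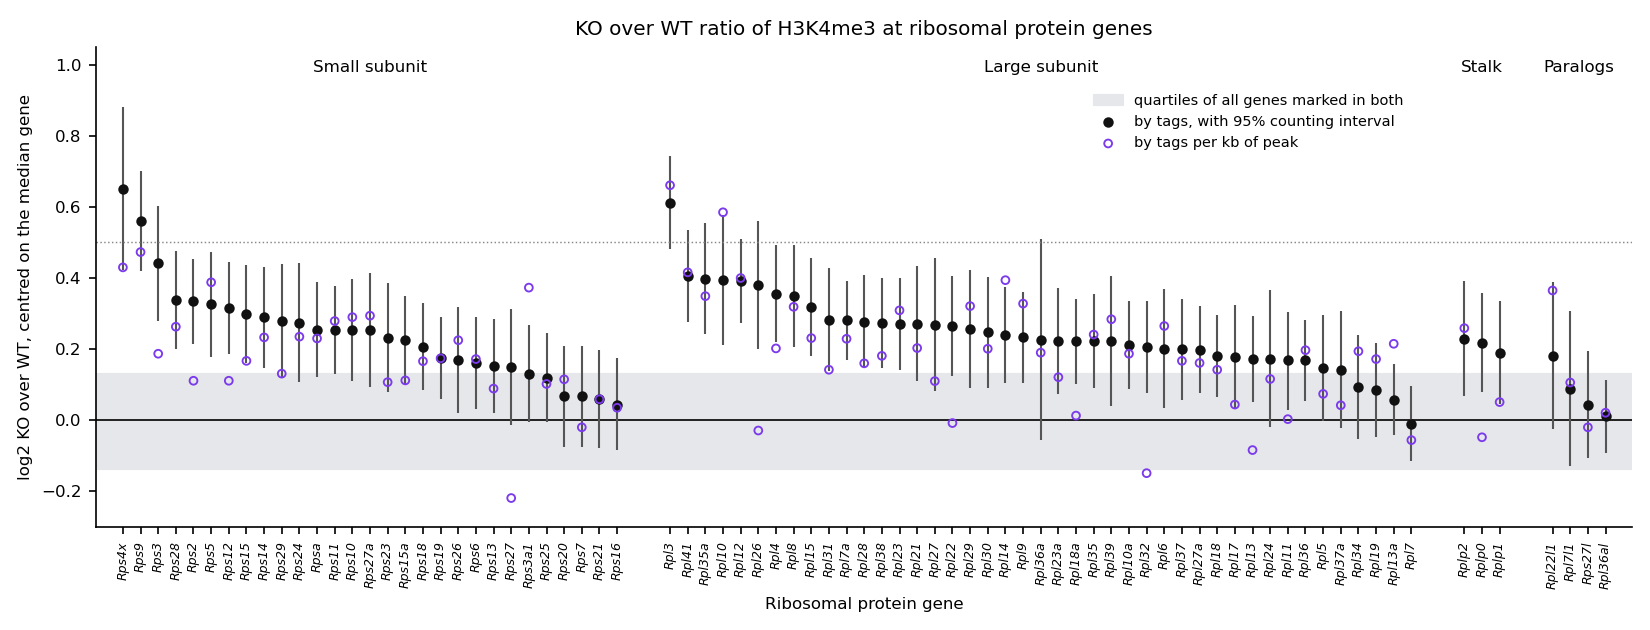
Log2 ratio of KO over WT H3K4me3 tags (vertical axis, centred on the median gene) at 79 of the 81 marked ribosomal protein genes, by role. Filled points with bars are ratios by tags with 95% counting intervals, open points are ratios per kb of peak, the grey band spans the quartiles of all marked genes (-0.14 to 0.13), and 3 genes lie above the dotted line at 0.5.

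The 31 small subunit genes had medians of 1064 tags in KO and 740 in WT, and a median centred ratio of 0.25, with 31 of 31 above 0 by tags and 29 per kb. Rps19, whose product is needed to process the small subunit's RNA and which is the gene most often mutated in Diamond-Blackfan anaemia, had the most tags of this subunit, 1457 in KO and 1075 in WT (0.17). Rps6, the target of the S6 kinases, had 1147 tags in KO and 855 in WT, a ratio of 0.16 (interval 0.03 to 0.29). Rpsa, also known as the laminin receptor, had 1095 in KO and 764 in WT, a ratio of 0.25. By ratio Rpsa lay at the median of the group, and Rps19 and Rps6 lay nearer its lower quartile of 0.15.

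The highest ratios of the small subunit were at Rps4x, Rps9 and Rps3. Rps4x, on the X chromosome, had 456 tags in KO and 242 in WT, a ratio of 0.65 (interval 0.42 to 0.88) and of 0.43 per kb. Rps9, whose counterparts in bacteria and yeast affect the accuracy of decoding, had 1135 tags in KO and 641 in WT, a ratio of 0.56 (0.42 to 0.70) and of 0.47 per kb. Rps3, at the entry of the messenger RNA channel, had 815 tags in KO and 500 in WT, a ratio of 0.44 (0.28 to 0.60) but of 0.19 per kb, with a KO peak of 2895 bp and a WT peak of 2526 bp. At the low end Rps16 had 1096 tags in KO and 885 in WT (0.04), and Rps27 was at 0.15 by tags but at -0.22 per kb, with a KO peak of 3164 bp and a WT peak of 2549 bp.

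The 43 large subunit genes had medians of 1055 tags in KO and 730 in WT and a median centred ratio of 0.23, with 42 above 0 by tags and 38 per kb. Rpl3, which reaches toward the peptidyl transferase centre, had 1340 tags in KO and 730 in WT, a ratio of 0.61 (interval 0.48 to 0.74) and of 0.66 per kb. It was the member with the highest ratio per kb. Rpl41, which encodes a very short basic peptide, had 1283 tags in KO and 807 in WT (0.40). Rpl12, at the base of the stalk, had 1523 in KO and 967 in WT (0.39), and Rpl35a 864 in KO and 546 in WT (0.40).

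By summed tags the highest counts of the large subunit were at Rpl13a, with 1852 tags in KO and 1481 in WT over 2 peaks (0.06), Rpl7, with 1603 in KO and 1344 in WT (-0.01), and Rpl7a, with 1601 in KO and 1097 in WT (0.28). Per kb of peak Rpl13a stood lower, at 259.0 tags in KO and 178.6 in WT, below the medians of the members. Rpl7 was the only member below 0 by tags. Its peak also covers the start of Rdh10, a retinol dehydrogenase gene, and that of Rpl13a the start of Flt3l. Rpl36, at 1469 in KO and 1089 in WT (0.17), and Rpl18, at 1451 in KO and 1066 in WT (0.18), likewise share peaks with a neighbour. Rpl5 and Rpl11, which with 5S RNA bind Mdm2 and so link ribosome assembly to p53, had 867 tags in KO and 652 in WT (0.15) and 1021 in KO and 757 in WT (0.17). Rpl22, which alpha-beta T cells need to develop in mice, had 1010 in KO and 700 in WT, at 0.26 by tags and -0.01 per kb.

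The stalk recruits elongation factors to the large subunit. Rplp0, its base, had 1015 tags in KO and 727 in WT, a ratio of 0.22 by tags and of -0.05 per kb. Rplp1 had 929 in KO and 678 in WT (0.19), and Rplp2 had 760 in KO and 540 in WT (0.23). By tags the ratios of the 3 genes lay within each other's counting intervals.

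Of the 10 paralogs or retrocopies, 4 were marked, with ratios from 0.01 to 0.18. Rpl36al, an autosomal copy of the X-linked Rpl36a, had 1740 tags in KO and 1438 in WT (0.01), in a peak shared with Mgat2, which starts next to it on the other strand. Rps27l, a p53 target, had 807 in KO and 652 in WT (0.04). Rpl22l1, a close relative of Rpl22, had 455 in KO and 334 in WT (0.18), and Rpl7l1 had 396 in KO and 310 in WT (0.09). Each of these 4 counting intervals included 0. Short stretches shared with other copies can limit where reads map, and how such reads were counted is not given in the sources used here.

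The genes of Diamond-Blackfan anaemia, an inherited failure of red cell production, lay within the range of the other members. All 9 listed were above 0 by tags, with a median of 0.17 and a range from 0.07 at Rps7 (931 tags in KO, 740 in WT) to 0.40 at Rpl35a. Rps10 had 983 in KO and 687 in WT (0.25), Rps24 had 716 in KO and 493 in WT (0.27), and Rps26 had 867 in KO and 642 in WT (0.17).

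The 4 X-linked members carried fewer tags than most autosomal ones. Rpl10 had 639 tags in KO and 405 in WT, Rpl39 had 591 in KO and 422 in WT, Rps4x had 456 in KO and 242 in WT, and Rpl36a had 250 in KO and 178 in WT. Their median per kb was 173.2 in KO and 101.4 in WT, against 359.0 in KO and 255.9 in WT for the 77 autosomal members. All 313 marked X-linked genes also had a lower median per kb, 178.0 in KO and 128.7 in WT. The ratio of the 4 had a median of 0.31, against 0.22 for autosomal members, while X-linked genes as a whole had a median of 0.07. Of 256 Y-linked genes 4 were marked in KO and 0 in WT. Whether the libraries differ in sex was not tested, and neither was its part in the X-linked values or in any other ratio of KO over WT.

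At members the mark reached farther into the gene than usual. The nearest peak ended a median of 2026 bp downstream of the start in KO and 1958 bp in WT, against 1344 bp in KO and 1378 bp in WT for all genes marked in both. At 1.5 kb downstream the peak still covered 92.6% of members in KO and 96.3% in WT, against 37.6% of all genes in KO and 40.8% in WT. On the upstream side median ends were similar, at -786 bp in KO and -832 bp in WT for members, and at -772 bp in KO and -808 bp in WT for all genes. Summed peaks were 2889 bp wide in KO and 2848 bp in WT at the median member, against 2240 bp in KO and 2340 bp in WT for all genes. The log2 ratio of widths had a median of -0.02 at members and of -0.05 over all genes, and 34 of 81 members were wider in KO and 47 in WT, against 3613 wider in KO and 6713 in WT of all 10343 genes.

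**Figure D3:**
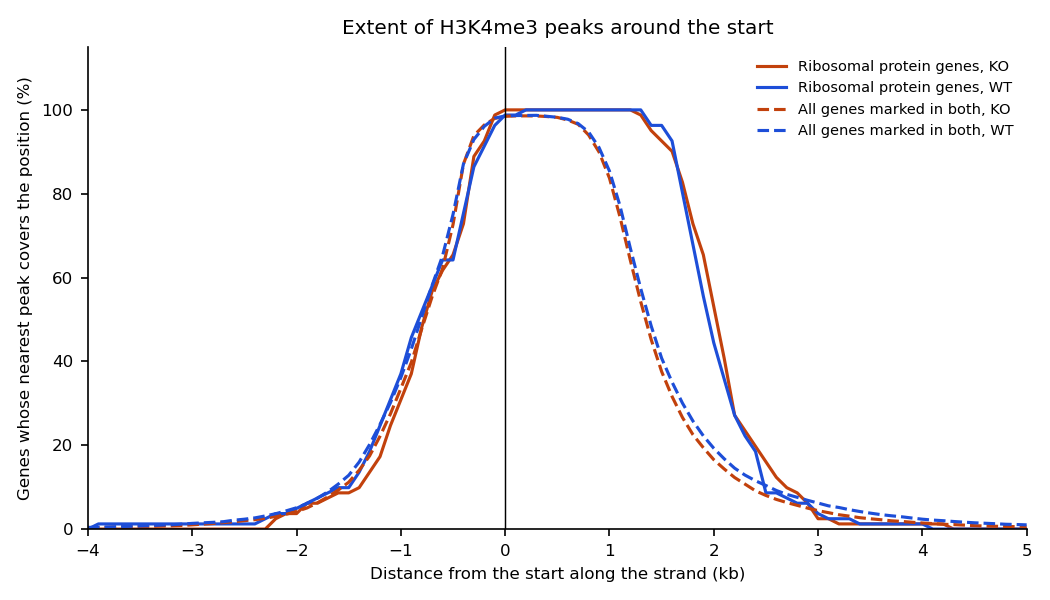
Share of genes (vertical axis, percent) whose nearest H3K4me3 peak covers each distance from the start (horizontal axis, kb along the strand). Solid lines are the 81 marked ribosomal protein genes and dashed lines all genes marked in both, KO in red and WT in blue. The solid lines fall about 2 kb downstream, past the dashed ones, and 400 bp upstream the peak covers 72.8% of members in KO and 75.3% in WT, against 87.05% of all genes in KO and 87.1% in WT.

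The peak summit lay a median of 397 bp downstream of the start in KO and 375 bp in WT, against 245 bp in KO and 250 bp in WT for all genes. Members are short genes, with a median length of 3175 bp, so the peak covered a median of 64.0% of the gene in KO and 62.5% in WT, against 6.51% in KO and 6.75% in WT for all genes. The summit lay apart from this position at 4 members, 3 of which share their peak with a neighbour. At Rpl41 the summit lay 1779 bp downstream of the start in KO and 1765 bp in WT, beyond its end and inside the neighbouring gene Zc3h10. At Rpl7 it lay at -907 bp in KO and -564 bp in WT, between its start and that of Rdh10, and at Rpl36al at -343 bp in KO and -380 bp in WT. At Rpl35 the summit lay at 397 bp in KO and at -323 bp in WT. The peak of Rpl35 reaches no other start among genes with a known start, but the 138 genes left out were not searched.

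The authors' fold enrichment over their background was 24.6 at the median member in KO, against 20.02 for all genes in that list, and 46.4 in WT, against 43.3. These values describe peaks within a list, since the lists had different backgrounds. At 20 members (24.7%) the peak also came within 1 kb of the start of another protein-coding gene with a known start, against 24.5% of all genes. The share was thus that of the background. Without these the median ratio was 0.22 over 61 members and 61 were above 0. Small nucleolar RNA genes, whose products guide modification of ribosomal RNA, lay inside 30 members (37%), against 2.4% of all marked genes, with 5 in Rpl4 and 4 each in Rpl13a and Rpl7a. Host members had a median ratio of 0.22 and the others of 0.23. Members with the ETS letters had a median of 0.20 and those without of 0.23, and members with a TOP run at the start had 0.23 against 0.22 without. The medians with and without each feature thus lay close together.

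Other genes of the same process were described from lists. Fau, which encodes a ribosomal protein fused to a ubiquitin-like protein, had 1228 tags in KO and 868 in WT (0.24), in a peak that also counts for the mitochondrial ribosomal protein gene Mrpl49. The 30 ribosome biogenesis genes were all marked, with a median ratio of 0.20, 25 above 0 by tags and 19 per kb (median 0.10). Among them Ddx21, an RNA helicase of the nucleolus, had 824 tags in KO and 487 in WT (0.49), and Nhp2 and Nop10, core proteins of H/ACA particles, had 672 in KO and 404 in WT (0.47) and 337 in KO and 207 in WT (0.44). Nop2, an RNA methyltransferase, had 720 in KO and 438 in WT (0.45). Per kb the ratios were 0.27 at Ddx21, 0.20 at Nhp2, 0.51 at Nop10 and 0.17 at Nop2.

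The 17 translation genes with TOP messages, such as elongation factor genes, were all marked and had a median of 0.19, with 13 above 0 by tags. Per kb their median was 0.02 and 9 were above 0, so their shift was not kept on that scale. Hnrnpa1 had 1279 tags in KO and 798 in WT (0.42, and 0.36 per kb), and Eef2 had 1436 in KO and 935 in WT (0.36, but -0.08 per kb). The 78 mitochondrial ribosomal protein genes were all marked, with a median of 0.12 and 63 above 0 by tags, and a median of 0.09 and 55 above 0 per kb. Of these, 2 were at least 0.5: Mrpl27, with 484 tags in KO and 283 in WT (0.51), and Mrpl54, with 408 in KO and 129 in WT (1.397), which came to -0.14 on merged regions. The median ratios of these lists lay between that of the cytosolic members and 0, and the differences between lists were not tested. By tags and summed width the TOP translation genes stood above the cytosolic members. Their medians were 1257 tags and 3278 bp in KO, and 924 tags and 3049 bp in WT. The biogenesis and mitochondrial lists stood below the members on both.

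**Figure D4:**
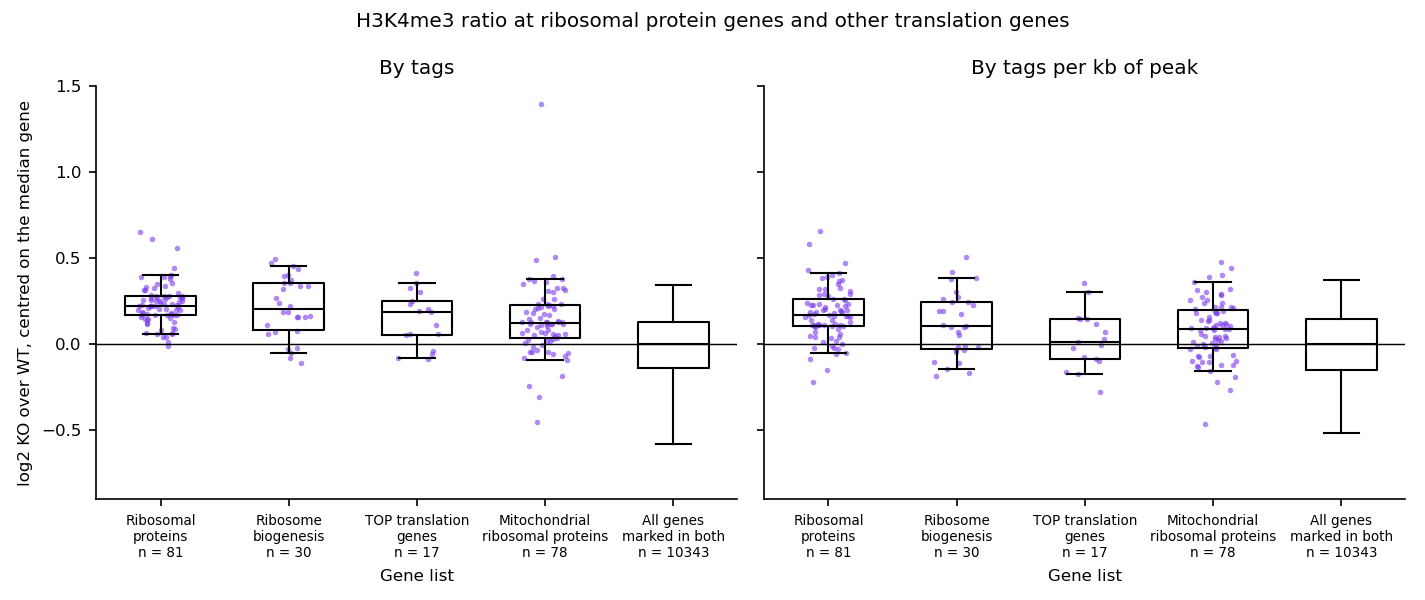
Centred log2 ratio of KO over WT H3K4me3 (vertical axis) for the 81 marked ribosomal protein genes, 3 other lists and all 10343 genes marked in both, by tags (left) and per kb of peak (right). Boxes give the quartiles and the median, whiskers percentiles 5 and 95, and points are genes. The median of ribosomal protein genes is 0.22 by tags and 0.17 per kb, and that of TOP translation genes is 0.19 by tags and 0.02 per kb.

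Tcf1 peaks were rare near members. The library labelled KO, from cells that should lack the protein, held 5139 Tcf1 peaks and the WT library 866. Neither Tcf1 list had a peak within 10 kb of any of the 87 genes, against 9.21% of all genes for the KO list and 2.06% for the WT list. Within 50 kb, 4 members (4.6%) were near a peak found in KO alone, against 20.2% of all genes, and 1 member (1.15%) near a peak found in WT alone, against 3.86%. The KO peaks lay 13.45 kb from the start of Rps26 (18 tags), 17.9 kb from that of Rps13 (11 tags), 19.6 kb from that of Rpl22l1 (12 tags) and 25.2 kb from that of Rps12 (11 tags), with the authors' FDR between 84.6% and 100%. The WT peak lay 46.0 kb from the start of Rps6, with 14 tags and an FDR of 26.4%. None of these 5 peaks overlapped an H3K4me3 peak or had a score of at least 100. Distances for the counts ran from the whole gene, and members had a median length of 3175 bp against 23213 bp for all genes marked with H3K4me3 in both. The part of gene length in these counts was not tested.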

How the data were processed

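Of tools, the submitters' processing notes list Bowtie2 2.1.0 and also MACS 1.4. Of builds they list GRCm38 (mm10) next to GRCh37, without saying what each was used for. The control track and the settings of the caller are not given in the sources used here. Peaks were called per library. The deposited lists give, per the file headers, the count of tags in each peak, a score (10 times the negative log10 of the p-value), the fold enrichment over the authors' background, and the FDR in percent. Positions were read as GRCm38.

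Rows were reduced to distinct peaks, with 1-based starts. RefSeq tables of GRCm38.p6 gave gene positions. Starts came from its promoter table for 67 members and from strands of features in the lists for 20. Of 21887 protein-coding genes, 138 with a nearby peak but no strand were left out. Tags and widths of peaks within 1 kb of a start were summed. Log2 ratios of KO over WT were centred on the median gene marked in both, and calls were at 0.5 or beyond. Counting intervals (95%) are Poisson. PCR copies were not identified. Code was tested on simulated data. Software was Python 3.11.15 with matplotlib 3.10.9, scipy 1.17.1, pandas 2.3.3 and numpy 2.4.6.

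Members, lists, alternatives and the naming rule were chosen with earlier results of these data known. Named were paralogs, stalk genes and Rpsa, the 8 members with most KO tags, the 5 highest and 5 lowest ratios, anaemia genes, Rps6, Rpl22, and up to 4 genes per other list. Other members named were chosen after their values were seen: the X-linked genes and Rpl15, Rpl35, Rps27, Rpl4, Rpl27, Rps12 and Rps13. Values of a few members and related genes are not reported here, and 2 members are not drawn by name.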

Additional observations from a re-analysis of the deposited data

How the results depend on the processing

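Alternatives were peaks covering the start or within 2.5 kb, a minimum score of 100, a maximum FDR of 1%, lists of equal length, tags per kb, total-tag scaling, unshared peaks and merged regions. The median ratio of 0.22 came to 0.17 per kb and to 0.31 with total-tag scaling, where the median gene also lies above 0. No alternative turned the members' median below 0, but merged regions repeat the listed tags and are no separate count. With peaks covering the start, 1 member (Rpl27) was marked in KO alone, because its WT peak of 400 tags begins 110 bp past the start. The share of all genes marked in KO alone under that rule is not reported here. Members near a KO-only Tcf1 peak numbered 4 within 50 kb, 0 within 10 kb (9% of all genes), 18 or 20.7% within 100 kb (31.9% of all) and 0 at scores of at least 100 (0.823% of all). Those near a WT-only peak numbered 1, 0 (1.81%), 3 or 3.45% (6.49%) and 0 (0.313%). Of 248 ratios of named genes under these alternatives 6 moved by more than their counting interval, each per kb, among them Rpl11 (0.00), Rpl13a (0.21), Rpl22 (-0.01), Rplp0 (-0.05) and Rps3 (0.19). The cause was not tested. No paired analysis was possible because each group has 1 library. Sequencing depth was unknown, and a member's counting interval reached 0.14 to either side of its ratio at the median.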

Other observations

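Of 318 ribosomal protein pseudogenes in the RefSeq table, 13 had an H3K4me3 peak overlapping them in KO and 13 in WT (4.09% each), and 2 had a Tcf1 peak in KO and 0 in WT. These genes are near copies of the members, and how reads from copies were placed is not given in the sources used here.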
